A study of Homo sapiens with 54 samples.

Results

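SERPINB1 and the intracellular serpins SERPINB2, SERPINB6, SERPINB8 and SERPINB9 are described here in 9 human cell lines before and after calcitriol, the hormonal form of vitamin D. The 5 genes were taken by name, and a gene was measured where a probe set of the array named it as its only symbol. SERPINB1, SERPINB8 and SERPINB9 met this, 3 of the 5 genes listed and of 18417 gene symbols in all, with 1 probe set each. SERPINB2 and SERPINB6 were not analysed here. SERPINB1 had been selected on its rise at 36 h over 0 h and over 8 h in the mean of the 9 lines, so those values are a description with no test, and SERPINB8 and SERPINB9 were put beside it with earlier results of these data known.

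The arrays were Affymetrix Gene 1.0 ST, with 2 arrays for each line at 0 h without an agent, at 8 h with calcitriol and at 36 h with calcitriol, which made 54 arrays in 27 groups. GM07019, GM07348, GM10854 and GM12878 were the 4 lymphoblastoid lines, B cells immortalised with Epstein-Barr virus, and each such line stands for 1 donor. The 5 other lines were the fibroblasts Ag09309 and Ag09319, HL60 from a promyelocytic leukaemia, K562 from a chronic myeloid leukaemia in blast crisis, and HEP-G2 from a liver cancer. No untreated culture kept for 8 h or 36 h was analysed here, so calcitriol and time in culture cannot be told apart in any change against 0 h. No source used here states the calcitriol dose. The titles mark the replicates BR1 and BR2, which nothing spells out, and do not say whether they were separate cultures. P-values within a line, between a line and the other 8, and between pairs of lines thus measure the spread between arrays, which may be technical. Those for means over lines and for class differences measure the spread between lines.

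Serpins are protease inhibitors that work once. The protease cuts an exposed loop of the serpin, the serpin snaps into a new shape, and both proteins stay locked in a complex. Members of clade B lack a classical secretion signal and act mostly inside the cell, where they guard it against proteases that leak from granules or lysosomes. SERPINB1 inhibits the neutrophil granule proteases elastase (ELANE), proteinase 3 (PRTN3) and cathepsin G (CTSG). SERPINB9 inhibits granzyme B (GZMB), the death-inducing protease of cytotoxic lymphocytes, and protects the cells that carry or meet it. SERPINB8 inhibits furin (FURIN), a protease that trims precursor proteins in the secretory pathway. SERPINB6 inhibits cathepsin G, and SERPINB2, also called plasminogen activator inhibitor-2, inhibits urokinase (PLAU).

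The members lie in serpin clusters on 2 chromosomes in the RefSeq annotation of GRCh38.p14. On chromosome 6 the order of protein-coding genes is SERPINB1, SERPINB9, SERPINB6, with the pseudogene SERPINB9P1 between SERPINB1 and SERPINB9. On chromosome 18 SERPINB2, SERPINB10, HMSD and SERPINB8 follow each other. SERPINB9P1 resembles SERPINB9, and cross-hybridisation between them was not tested.

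Promoter windows of SERPINB1 and SERPINB9 are printed because the vitamin D receptor binds pairs of hexamer half-sites, and these windows show where such letters stand next to the start of each gene. Each window runs from 250 bases before to 20 bases after the RefSeq start on GRCh38.p14, both on the minus strand, 5′ to 3′ as transcribed. Capitals mark matches on either strand to the half-sites searched. These were the hexamer AGGTCA, its variant with a G first, GGGTCA, its variant with T in place of the last G, AGTTCA, and its variant with both changes, GGTTCA. The SERPINB1 window is chr6:2841844-2842113 and the SERPINB9 window is chr6:2903290-2903559.
SERPINB1: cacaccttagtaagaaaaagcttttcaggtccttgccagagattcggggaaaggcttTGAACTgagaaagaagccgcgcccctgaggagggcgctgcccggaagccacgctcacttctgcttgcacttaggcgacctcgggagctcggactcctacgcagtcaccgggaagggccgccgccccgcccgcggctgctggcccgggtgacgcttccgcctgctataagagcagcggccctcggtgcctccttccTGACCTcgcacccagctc
SERPINB9: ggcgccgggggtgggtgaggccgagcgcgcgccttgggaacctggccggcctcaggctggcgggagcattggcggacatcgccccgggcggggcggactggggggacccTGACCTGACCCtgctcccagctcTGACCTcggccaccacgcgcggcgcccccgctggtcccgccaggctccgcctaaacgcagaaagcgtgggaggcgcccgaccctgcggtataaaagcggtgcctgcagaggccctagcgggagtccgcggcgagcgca

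The SERPINB1 window held 2 half-sites, AGTTCA at bases -193 to -188 and AGGTCA at bases 3 to 8 counted from the start, both on the opposite strand. The SERPINB9 window held 3, all on the opposite strand. They were AGGTCA at -141 to -136, GGGTCA at -136 to -131, which shares a base with it, and AGGTCA at -118 to -113. The SERPINB8 window (chr18:63969831-63970100, plus strand) held 0. None of the 3 windows held a direct repeat of half-sites with a spacer of 3 bases, the arrangement the receptor is best known for (0 in each). Of 35116 RefSeq windows of this length, 35.9% held at least 1 half-site, 1.64% held 3 or more and 0.0683% held such a direct repeat. The G and C content was 64.1% for SERPINB1, 74.8% for SERPINB9 and 49.6% for SERPINB8, beside a median of 58.1% over all windows. A match describes letters only, and windows further from the start were not searched.

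All values are log2 intensities after RMA, a normalization that sums the probes of a probe set, and a level of 1 probe set is not set against that of another. Array medians ran from 4.98 to 5.31, no pair of arrays was identical (0), and 3 arrays stood apart from the rest of their line, Ag09319 8 h replicate 2, HEP-G2 0 h replicate 2 and K562 36 h replicate 1. CYP24A1, the enzyme that degrades calcitriol and a well-known target of its receptor, was higher at 36 h than at 0 h in 9 of 9 lines and rose by 2.79 ± 0.49 in their mean (limma, adjusted p = 0.00569). The titles of 1 line name GM18054 and its cell line field names GM10854, and the field was used. Fibroblast, promyelocyte, erythroid and hepatocyte markers were each highest in the lines they name, with 2 of 5 erythroid markers measured.

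The 2 arrays of Ag09309 at 0 h went against their label in part. Of 5 B cell markers 4 were measured, and their mean was 6.16 and 6.23 on the arrays at 0 h, 4.47 and 4.27 at 8 h, and 4.21 and 4.05 at 36 h. MS4A1, which encodes the B cell surface protein CD20, read 8.15 and 8.07 at 0 h against 3.38 and 3.29 at 8 h and 3.10 and 2.85 at 36 h. In the lymphoblastoid lines MS4A1 lay between 9.20 and 10.24, and in the other fibroblast line, Ag09319, between 3.02 and 3.89. Fibroblast markers were high in the same Ag09309 arrays at 0 h, with a mean of 9.64. The 0 h levels of Ag09309, their comparisons with other lines and the changes from 0 h in Ag09309 rest on these arrays. So do the 9-line means and the class differences, which are therefore given without the line too for the 3 members. In bulk RNA, fewer cells of a type and less RNA per cell cannot be told apart.

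Before calcitriol, SERPINB1 was highest in HL60, lower in K562, the fibroblasts and HEP-G2, and lowest in the 4 lymphoblastoid lines. SERPINB9 had the opposite order between these classes, highest in the lymphoblastoid lines and lowest in HL60. SERPINB8 followed neither, being highest in HL60, intermediate in lymphoblastoid lines and fibroblasts, and lowest in HEP-G2 and K562.

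SERPINB1 read 8.38 and 8.61 in HL60, a line arrested at the promyelocyte stage, when neutrophil granule proteases are made. K562 followed with 6.95 and 6.49, then Ag09319 with 6.63 and 6.30, Ag09309 with 6.34 and 6.30 and HEP-G2 with 6.65 and 5.96. HL60 stood 1.77 above K562 with no overlap (limma, 36 pairs of lines tested for each probe set, adjusted p = 7.06e-07), whereas from K562 down to HEP-G2 each line overlapped the next on its arrays, with gaps of at most 0.25 and adjusted p of 0.524 to 0.96. Among lymphoblastoid lines SERPINB1 read 5.35 and 5.60 in GM10854, 5.62 and 5.26 in GM07019, 5.16 and 4.90 in GM12878 and 5.13 and 4.55 in GM07348. The step from HEP-G2 to GM10854 was 0.83 with no overlap (adjusted p = 0.0111), and neighbours below it did not differ past the threshold of 0.05 (adjusted p of 0.476 to 1). Between classes the SERPINB1 level was lower in the lymphoblastoid lines by 1.67 ± 0.43 (4 against 5 lines). The line means ran from 4.84 to 5.47 against 6.30 to 8.49, with no overlap, but the test did not pass (limma, adjusted p = 0.0837), while 3% of probe sets did. Without HL60, the line farthest from the rest, the difference was -1.26 ± 0.19 (adjusted p = 0.00741), and without Ag09309 it was -1.80 ± 0.45 (adjusted p = 0.096).

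For SERPINB9 the order was GM07019 with 8.19 and 7.94, GM10854 with 7.85 on both arrays, GM12878 with 7.60 and 7.43 and GM07348 with 7.11 and 7.13. These 4 lymphoblastoid lines did not differ from their neighbours past the threshold (adjusted p of 0.385 to 1), although their arrays did not overlap. Of pairs further apart in the order, GM07019 minus GM07348 was 0.95 (limma, adjusted p = 0.00214) and GM07348 minus GM10854 was -0.73 (adjusted p = 0.0298). GM07019 minus GM12878 was 0.55 and did not pass (adjusted p = 0.0978). K562 came next at 6.56 and 6.49, which was 0.60 below GM07348 (adjusted p = 0.0128) and 0.58 above Ag09309 (adjusted p = 0.0116). Ag09309 read 5.95 and 5.93, Ag09319 5.86 and 5.68 and HEP-G2 5.57 and 5.53, and these neighbours did not differ past the threshold (limma, adjusted p of 0.31 to 0.817). The Ag09309 arrays here are those that carried B cell markers, and the part of these markers in the SERPINB9 level was not tested. HL60 was lowest at 3.96 and 4.33, 1.41 below HEP-G2 (adjusted p = 7.39e-08). The class difference of SERPINB9 at 0 h was 2.05 ± 0.42 higher in lymphoblastoid lines (limma, adjusted p = 0.0322), with line means of 7.12 to 8.07 against 4.14 to 6.52. It did not hold against leaving out single lines. Without Ag09309 it was 2.14 (adjusted p = 0.0523), and without any 1 of GM07019, GM07348, GM10854, GM12878, Ag09319 and HEP-G2 the adjusted p lay between 0.0539 and 0.124, while the difference stayed at 1.91 or more.

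SERPINB8 read 7.92 and 8.27 in HL60, 1.38 above Ag09309, the next line (adjusted p = 2.05e-06). Ag09309 had 6.84 and 6.60 and Ag09319 6.43 and 6.48, and the 4 lymphoblastoid lines lay together, with means from 5.75 to 6.01. HEP-G2 with 4.21 and 4.46 and K562 with 4.26 and 4.27 were lowest, and the step down to HEP-G2 from GM10854 was 1.41 (adjusted p = 1.81e-06). The class difference of SERPINB8 was -0.12 ± 0.72 (adjusted p = 0.978), and 0.07 ± 0.78 without Ag09309 (adjusted p = 0.996), with the other lines reaching both above and below the lymphoblastoid lines.

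Proteases that the members are known to inhibit, and the receptor PLAUR, had their own distribution over lines at 0 h. ELANE read 8.59 and 9.18 in HL60 and between 6.01 and 6.98 in all other lines. PRTN3 read 8.91 and 8.86 in HL60 and between 5.76 and 6.87 elsewhere, and CTSG read 8.33 and 8.54 in HL60 and between 4.32 and 5.01 elsewhere. The line with the highest SERPINB1 level was thus the one with the highest levels of these 3 target proteases. GZMB, the target of SERPINB9, lay between 4.74 and 5.61 on all arrays at 0 h, near the array medians, and had no line that stood out. FURIN, the target of SERPINB8, lay between 5.56 and 7.18 and was highest in K562, where SERPINB8 was lowest. PLAU read 8.99 and 8.95 in Ag09319, 3.39 above its median line. PLAT, tissue plasminogen activator, was 2.49 above its median line in Ag09309, and PLAUR, the urokinase receptor, was 1.91 above its own there. CASP1, an inflammatory caspase, was 1.52 above its median line in GM12878 and 1.87 below it in K562 (-1.87 on the log2 scale).

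**Figure D1:**
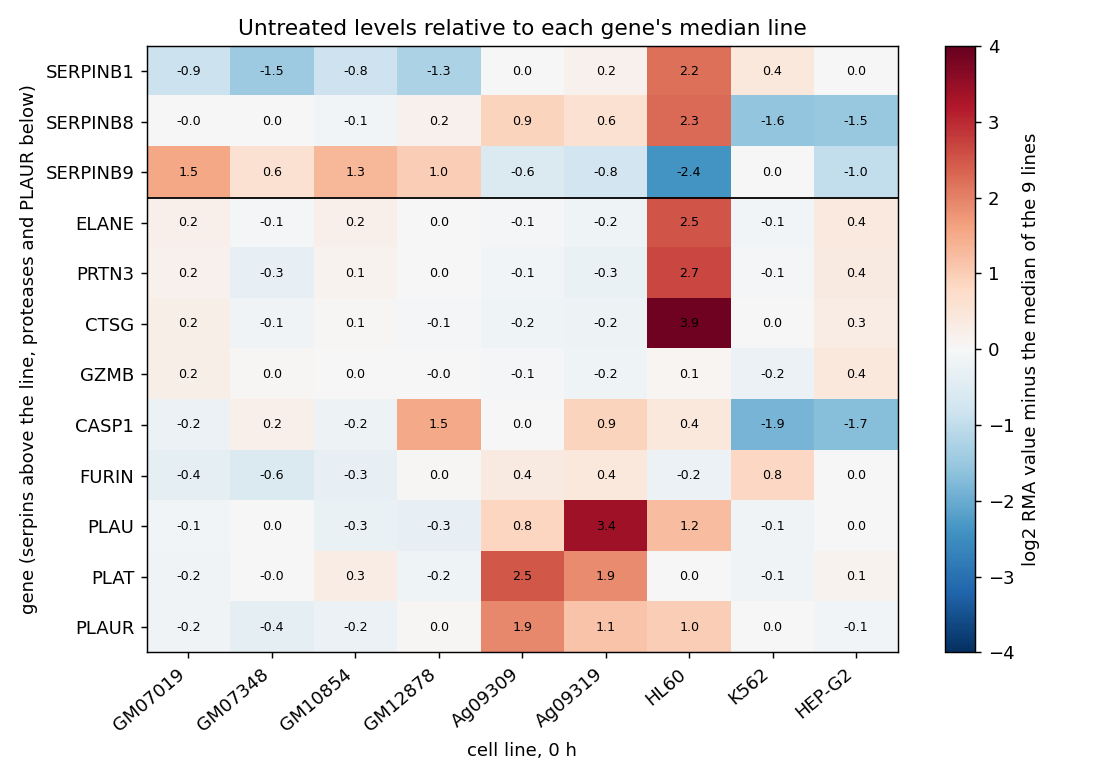
Level of each gene in each line at 0 h (mean of 2 arrays) minus the median of the 9 lines for that gene, as log2 RMA values, for the 3 measured serpins above the line and 8 proteases and PLAUR below it. SERPINB1, SERPINB8, ELANE, PRTN3 and CTSG are all highest in HL60, where SERPINB9 is lowest.

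After calcitriol, SERPINB1 was higher at 36 h than at 0 h in 9 of 9 lines, and the mean change was 0.68 ± 0.11 on the log2 scale, or 1.60-fold. Nearly all of it came after 8 h: the mean change from 0 h to 8 h was 0.05 ± 0.11 (limma, adjusted p = 1) and that from 8 h to 36 h was 0.63 ± 0.11. The rises at 36 h over 0 h and over 8 h chose the gene and are given without a test. The change at 8 h is the difference between those 2 values. Choosing on both favours a late rise, so this timing is a description too. In the mean of 9 lines 0.468% of all probe sets were called at 36 h against 0 h, 87 higher and 4 lower, and 1.39% had a higher mean in all 9 lines. At 8 h against 0 h, limma called 0 of 19460 probe sets (0%), with 542 at an unadjusted p under 0.05, none of them a member.

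The lymphoblastoid lines started from low SERPINB1 levels. At 0 h, 35.7% of tested probe sets lay below it in GM07348, 37.73% in GM12878, 46.55% in GM07019 and 47.44% in GM10854. SERPINB1 in GM07348 went from 5.13 and 4.55 at 0 h to 5.20 and 4.86 at 8 h and 5.68 and 5.39 at 36 h. GM10854 went from 5.35 and 5.60 to 5.62 and 5.68 and then 6.13 and 6.27. GM07019 read 5.62 and 5.26, then 5.62 and 5.93, then 6.04 and 5.89. The 36 h arrays lay above both 0 h arrays in these 3 lines, with SERPINB1 changes of 0.69, 0.73 and 0.52. Taken line by line, 21.5%, 26.2% and 18% of all probe sets did so. GM12878 had the smallest SERPINB1 change of the class, from 5.16 and 4.90 through 5.12 and 4.96 to 5.38 and 5.39, a change of 0.36. In the mean of the 4 lymphoblastoid lines SERPINB1 changed by 0.58 ± 0.09 at 36 h, or 1.49-fold, and by 0.18 ± 0.09 at 8 h (limma, adjusted p = 1, with 0.0257% of probe sets called).

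HL60, the line with the highest SERPINB1 level, went from 8.38 and 8.61 to 9.10 and 9.05 at 8 h and 9.32 and 9.35 at 36 h. Both 8 h arrays lay above both 0 h arrays, so most of the HL60 change of 0.84 was there at 8 h (0.58 ± 0.25), though this early change did not pass the test over all probe sets (limma, adjusted p = 0.998, with 0.236% called), nor did its difference from the mean of the other 8 lines (0.60 ± 0.27, adjusted p = 0.852, with 0.19% called). HL60 cells can become monocytes under calcitriol, and CD14, a receptor of monocytes, went from 5.98 and 5.99 to 8.72 and 8.41 and then 10.20 and 9.97. Of 5 monocyte markers 4 were measured, with means of 6.66, 7.23 and 7.88 at 0, 8 and 36 h, and CD14 was the only 1 of them with a higher mean at 8 h than at 0 h. LYZ had means of 12.09, 12.06 and 12.53 at the 3 times, and CSF1R and CD163 stayed between 3.17 and 5.14 on all 6 arrays. The part of these markers in the SERPINB1 change was not tested.

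Ag09319 had the largest SERPINB1 change of the 9 lines, from 6.63 and 6.30 at 0 h and 6.51 and 5.62 at 8 h to 7.66 and 7.90 at 36 h. The 36 h arrays lay more than 1 log2 unit above every earlier array of the line, and the change from 0 h was 1.31, or 2.48-fold. Its difference from the mean of the other 8 lines was 0.71 ± 0.27 (limma, adjusted p = 0.21, with 3.28% of probe sets called), and 0.80 without the 3 arrays that stood apart. Such differences of SERPINB1 at 36 h use the line changes whose mean chose the gene, so they are read as descriptions. The other fibroblast line, Ag09309, had the smallest change, with 6.34 and 6.30, then 6.08 and 6.06, then 6.74 and 6.34, and the lower 36 h array lay level with those at 0 h. The SERPINB1 change there was 0.22 against the 0 h arrays that carried B cell markers, and -0.52 ± 0.27 relative to the other 8 lines (adjusted p = 0.381).

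With 2 arrays at each time, the SERPINB1 change at 36 h depended on single arrays in several lines, though it stayed above 0 in all 9 on leaving out any 1 array. It ran from 0.0165 to 0.42 in Ag09309, from 0.41 to 0.98 in GM07348, from 0.34 to 0.71 in GM07019 and from 0.23 to 0.49 in GM12878. SERPINB1 in HEP-G2 read 6.65 and 5.96 at 0 h, 6.16 and 6.70 at 8 h and 7.20 and 7.24 at 36 h, a change of 0.92 that became 0.57 without the 0 h array that stood apart and 1.26 without the other 0 h array. K562 read 6.95 and 6.49 at 0 h, 6.55 and 6.20 at 8 h and 7.65 and 6.83 at 36 h. Its 36 h arrays overlapped those at 0 h, and the change of 0.52 became 0.11 without the array that stood apart and 0.93 without the other one.

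Counting lines in which both 36 h arrays lay above both 0 h arrays, SERPINB1 did so in 7 of 9, and 0.555% of all probe sets did so in as many. The exceptions were K562 and, by less than 0.01, Ag09309. Against 8 h, both 36 h arrays of SERPINB1 lay higher in 8 of 9 lines (0.242% of probe sets did so in as many), the exception being GM07019. Both counts use the comparisons that chose the gene, so they are descriptions and not a test. Without Ag09309 the 9-line changes of SERPINB1 became 0.74 from 0 h and 0.65 from 8 h, with 0.09 from 0 h to 8 h (adjusted p = 0.999), and without the 3 arrays that stood apart 0.60 and 0.54. The SERPINB1 change at 36 h did not differ past the threshold between lymphoblastoid and other lines, and the class difference was -0.19 ± 0.19 (limma, adjusted p = 0.851, with 0.0103% of probe sets called), and -0.32 ± 0.16 without Ag09309 (adjusted p = 0.717). This class difference also uses the line changes whose mean chose the gene.

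**Figure D2:**
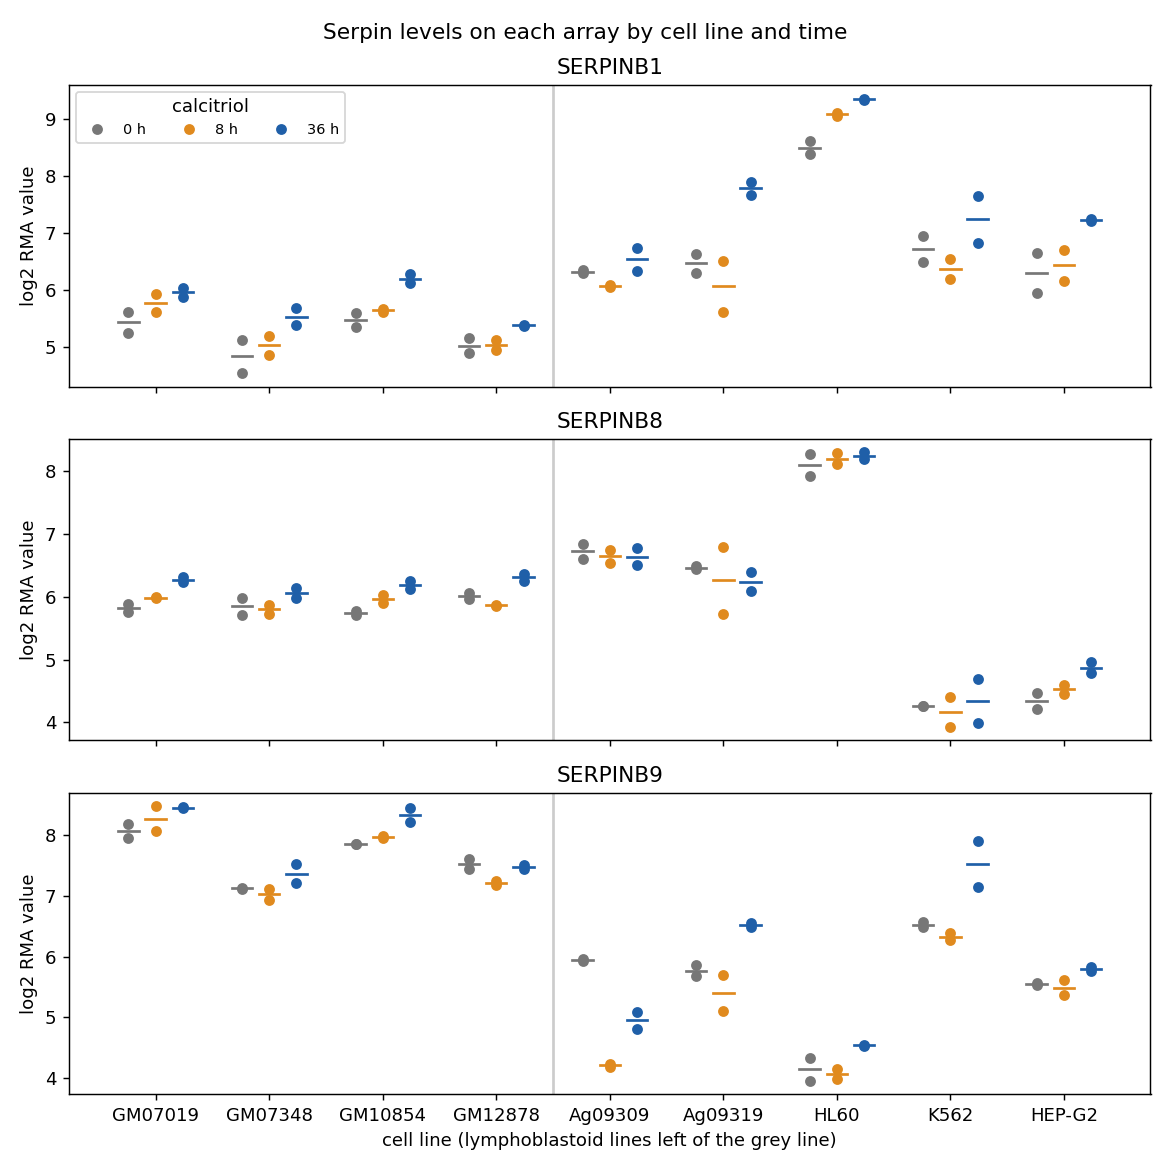
Level of SERPINB1, SERPINB8 and SERPINB9 on each of 54 arrays (points, log2 RMA value) by cell line and time, with bars at the mean of 2 arrays. The 36 h mean of SERPINB1 is the highest of the 3 times in every line, and SERPINB9 in Ag09309 is lowest at 8 h.

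SERPINB9 did not pass the test in the mean of 9 lines at either time, and its single-line calls went in different directions. Its mean change over 9 lines was -0.28 ± 0.15 at 8 h and 0.28 ± 0.15 at 36 h (limma, adjusted p of 1 and 0.402). From 8 h to 36 h it was higher in 9 of 9 lines (1.21% of probe sets were), by 0.56 ± 0.15 in the mean, which did not pass (adjusted p = 0.0815, with 0.37% of probe sets called). Without Ag09309 the 3 values were -0.10 ± 0.10 at 8 h (adjusted p = 0.999), 0.43 ± 0.10 at 36 h (adjusted p = 0.0511) and 0.53 ± 0.10 from 8 h to 36 h, the last of which passed (adjusted p = 0.012). Changes from 0 h and from 8 h to 36 h share the 36 h arrays.

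In Ag09309 SERPINB9 fell from 5.95 and 5.93 at 0 h to 4.19 and 4.23 at 8 h, and stood at 5.08 and 4.81 at 36 h. Neither later group overlapped the 0 h arrays, and 23.3% of all probe sets were lower at 36 h without overlap in this line. At 8 h SERPINB9 was low, with 22.48% of tested probe sets below it. The change was -1.73 ± 0.18 at 8 h (limma, adjusted p = 1.18e-08, with 1.53% of probe sets called) and -0.995 ± 0.18 at 36 h (adjusted p = 0.000419, with 4.91% called). Relative to the mean of the other 8 lines it was -1.64 ± 0.20 at 8 h (adjusted p = 1.82e-07) and -1.43 ± 0.20 at 36 h (adjusted p = 2.79e-06), with 1.5% and 3.97% of probe sets called. The 0 h arrays of this comparison are those that carried B cell markers, and SERPINB9 is high in the lymphoblastoid lines. MS4A1 was lower at 8 h too, at 3.38 and 3.29 after 8.15 and 8.07, and the part of the B cell markers in the SERPINB9 fall was not tested. From 8 h to 36 h, where both groups were low in MS4A1, SERPINB9 in Ag09309 changed by 0.74 ± 0.18 (adjusted p = 0.0614, with 0.38% of probe sets called). Without the 3 arrays that stood apart, none of them from this line, the change was the same and the shared spread smaller (0.74 ± 0.15, adjusted p = 0.00404). Leaving out single arrays of the line gave 0.60 to 0.87.

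**Figure D3:**
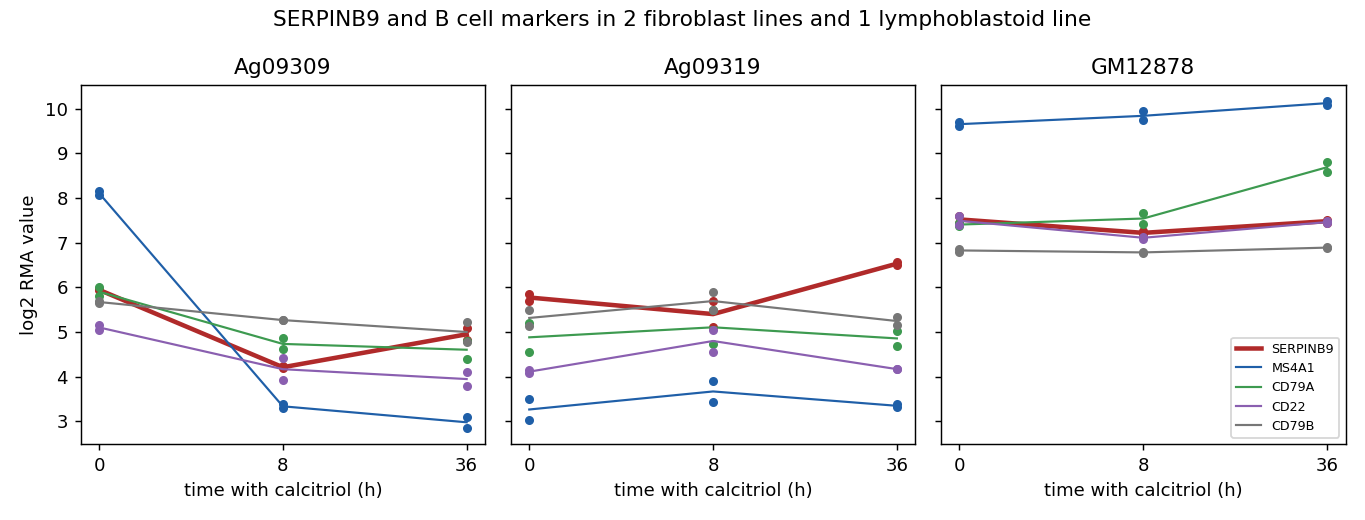
SERPINB9 (thick line) and 4 B cell markers (thin lines) in the fibroblast lines Ag09309 and Ag09319 and the lymphoblastoid line GM12878 at 0, 8 and 36 h, as log2 RMA values, with points for arrays and lines through their means. In Ag09309 both MS4A1 and SERPINB9 are lower at 8 h than at 0 h, while in Ag09319 MS4A1 stays between 3.02 and 3.89 at all times.

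In Ag09319, the other fibroblast line, SERPINB9 changed by -0.37 ± 0.18 from 0 h to 8 h (limma, adjusted p = 0.189). That change was -0.08 without 8 h replicate 2, the array that stood apart, and -0.66 without 8 h replicate 1. Unlike in Ag09309, SERPINB9 was higher at 36 h than at 0 h. It read 5.86 and 5.68 at 0 h, 5.69 and 5.11 at 8 h and 6.49 and 6.56 at 36 h. Both 36 h arrays lay above every earlier array, and 21.2% of all probe sets in this line had both above the 0 h arrays. SERPINB9 rose by 0.76 ± 0.18 from 0 h (limma, adjusted p = 0.00825, with 4.49% of probe sets called) and by 1.13 ± 0.18 from 8 h (adjusted p = 4.86e-05, with 18% called). The rise from 8 h was 0.84 without 8 h replicate 2 and 1.42 without 8 h replicate 1. The call from 0 h was lost on leaving out Ag09319 0 h replicate 2 (0.67, adjusted p = 0.136), 36 h replicate 1 (0.79, adjusted p = 0.0546) or 36 h replicate 2 (0.72, adjusted p = 0.0943). Relative to the other 8 lines the 36 h change was 0.54 ± 0.20 (adjusted p = 0.166), and 0.59 without the 3 arrays that stood apart (adjusted p = 0.0156).

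K562 had the largest SERPINB9 rise at 36 h, from 6.56 and 6.49 at 0 h and 6.38 and 6.27 at 8 h to 7.90 and 7.15. It rose by 0.999 ± 0.18 from 0 h (limma, adjusted p = 0.0119, with 0.0411% of probe sets called) and by 1.195 ± 0.18 from 8 h (adjusted p = 0.000399, with 0.139% called). Both calls rested on the array that stood apart, 36 h replicate 1. Without it the changes were 0.62 (adjusted p = 0.636) and 0.82 (adjusted p = 0.401). The call from 0 h was also lost without either 0 h array (adjusted p = 0.128 and 0.134) and with every array centred on its median (0.87, adjusted p = 0.0854), since the median of all probe sets in K562 was 0.13 higher at 36 h. The difference from the other 8 lines did not pass (0.81 ± 0.20, adjusted p = 0.169, with 0.0565% called). No single-line call of SERPINB9 in K562 or Ag09319 held in a fit to the arrays of that line alone (adjusted p of 0.239 to 0.994).

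In the remaining lines SERPINB9 changed less. In HL60, where its level was lowest, it went from 3.96 and 4.33 through 3.98 and 4.14 to 4.53 and 4.54, and in HEP-G2 from 5.57 and 5.53 through 5.36 and 5.61 to 5.77 and 5.83. Both lines had their 36 h arrays above those at 0 h, by 0.39 ± 0.18 and 0.25 ± 0.18 in the mean (limma, adjusted p of 0.649 and 0.729). Of all probe sets, 15.7% in HL60 and 16.1% in HEP-G2 had their arrays so placed. Among lymphoblastoid lines SERPINB9 in GM07019 read 8.19 and 7.94, then 8.07 and 8.47, then 8.46 and 8.45. GM10854 went from 7.85 on both arrays through 7.96 and 7.98 to 8.45 and 8.22, and GM07348 from 7.11 and 7.13 through 7.11 and 6.94 to 7.52 and 7.21. In these 3 lines the 36 h arrays lay above those at 0 h. Of all probe sets, 18% did so in GM07019, 26.2% in GM10854 and 21.5% in GM07348. SERPINB9 in GM12878 ended near where it began, at 7.60 and 7.43, then 7.18 and 7.25, then 7.52 and 7.44. Its 36 h change relative to the other 8 lines was -0.35 ± 0.20 and did not pass the test. The mean of the 4 lymphoblastoid lines changed by 0.27 ± 0.09 at 36 h (adjusted p = 0.193), and by -0.02 ± 0.09 at 8 h (adjusted p = 1). The class difference in the SERPINB9 change at 36 h was -0.01 ± 0.30 (adjusted p = 0.996). Without Ag09309 it was -0.33 ± 0.17 (adjusted p = 0.721), and without K562 it was 0.17. Both 36 h arrays of SERPINB9 lay above both 0 h arrays in 7 of 9 lines, as often as those of SERPINB1, beside 0.555% of probe sets.

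SERPINB8 had the smallest changes of the 3 members in the mean of 9 lines, but not in every line or class. Its mean change over 9 lines was 0.01 ± 0.07 at 8 h and 0.21 ± 0.07 at 36 h (limma, adjusted p of 1 and 0.18), and 0.19 ± 0.07 from 8 h to 36 h (adjusted p = 0.149). Without Ag09309 these were 0.02, 0.24 and 0.22 (adjusted p of 0.999, 0.127 and 0.175). In the 4 lymphoblastoid lines SERPINB8 read between 5.70 and 6.06 on the 8 arrays at 0 h. At 36 h it read 6.31 and 6.23 in GM07019, 6.14 and 5.98 in GM07348, 6.25 and 6.13 in GM10854 and 6.36 and 6.25 in GM12878. Each line except GM07348 had its 36 h arrays above its 0 h arrays, as 18% of all probe sets had in GM07019, 26.2% in GM10854 and 14.6% in GM12878. The mean of the 4 lines rose by 0.35 ± 0.08, or 1.28-fold (limma, adjusted p = 0.0439, with 1.14% of probe sets called), beside 0.27 for SERPINB9 in the same lines. That call was lost without GM07019, GM10854 or GM12878 (adjusted p of 0.235, 0.326 and 0.152). In the 5 other lines SERPINB8 had no common direction. HEP-G2 went from 4.21 and 4.46 to 4.95 and 4.79, HL60 from 7.92 and 8.27 to 8.19 and 8.29, and K562 from 4.26 and 4.27 to 4.70 and 3.99. The fibroblast lines overlapped or lay lower, going from 6.84 and 6.60 to 6.77 and 6.50 in Ag09309 and from 6.43 and 6.48 to 6.08 and 6.39 in Ag09319. Both 36 h arrays lay above both 0 h arrays in 4 of 9 lines, as in 13.1% of probe sets. No single-line change of SERPINB8 passed, and the class difference at 36 h was 0.26 ± 0.15 (adjusted p = 0.725), and 0.22 ± 0.15 without Ag09309 (adjusted p = 0.787). HEP-G2 had the largest SERPINB8 change, 0.53 ± 0.22 (limma, adjusted p = 0.281, with 1.84% called), which became 0.66 without the 3 arrays that stood apart. SERPINB8 was low in HEP-G2, with 21.27% of tested probe sets below it at 0 h.

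**Figure D4:**
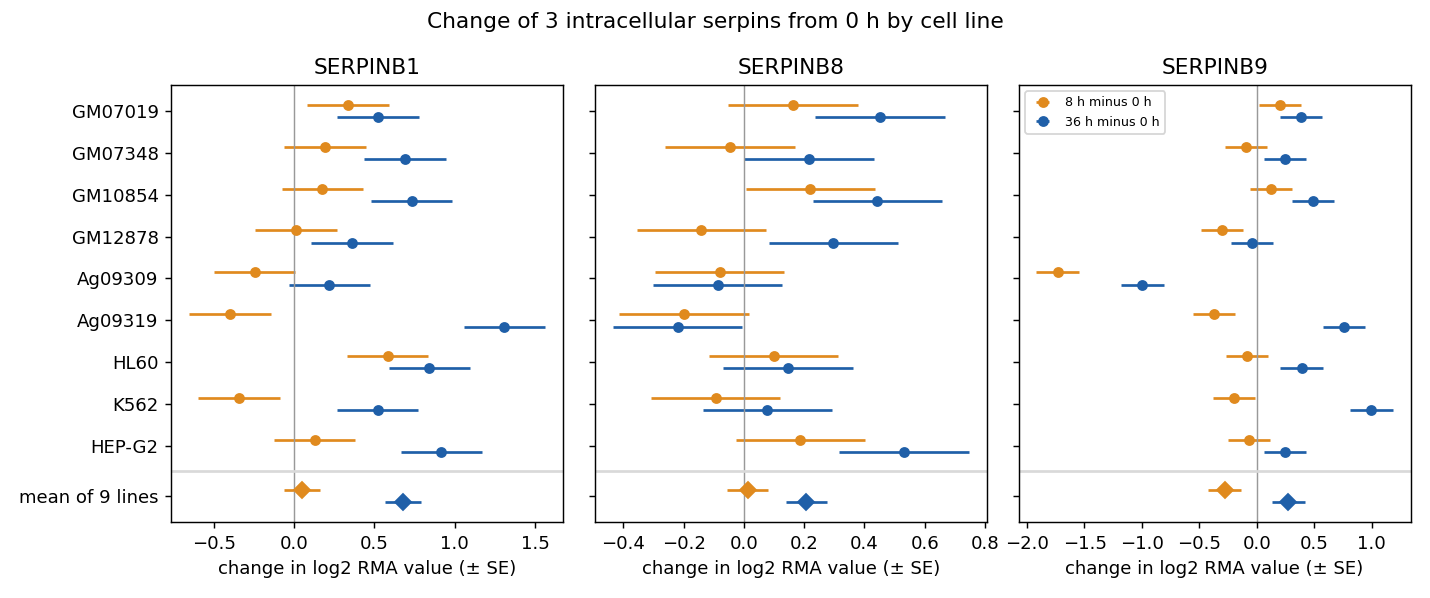
Change of SERPINB1, SERPINB8 and SERPINB9 from 0 h to 8 h and to 36 h in each line (circles) and in the mean of 9 lines (diamonds), in log2 RMA units with bars of 1 standard error. The horizontal scales differ between panels. All 9 changes of SERPINB1 at 36 h lie above 0, and SERPINB9 in Ag09309 lies below 0 at both times.

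The 3 members had different patterns over lines. Over the 27 group means, the Pearson correlation with SERPINB1 was 0.44 for SERPINB8 and -0.66 for SERPINB9, and over the 9 line changes at 36 h it was -0.15 and 0.60. These points share arrays and lines, and the correlations are descriptions. The genes most like SERPINB1 over the 27 group means, of 18416 others, were LPCAT2 (0.93), MTURN (0.91), QTGAL (0.90), RNF24 (0.90) and IGSF10 (0.89). LPCAT2, an enzyme that remakes membrane phospholipids, stood at 9.31 in HL60 at 0 h and between 3.05 and 3.72 in the lymphoblastoid lines. LPCAT2 changes at 36 h did not run with those of SERPINB1, at -0.72 in Ag09319 and 0.26 in HL60. Over the 9 changes at 36 h another set of genes came closest, WSB1 (0.95), DDX17 (0.95), PNISR (0.94), RBM5 (0.91) and PUS10 (0.91).

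Of the other clade B serpins all 8 listed were measured, and limma called 0 in the mean of 9 lines at 36 h against 0 h (2 at an unadjusted p under 0.05), with a median change of 0.04 beside 0.01 over all probe sets. In the 4 lymphoblastoid lines 0 were called as well (0 at an unadjusted p under 0.05). SERPINB7 was the single clade B serpin outside the members called in any line, and it rose in Ag09319, by 1.11 ± 0.22 from 0 h (adjusted p = 0.000857) and by 1.13 ± 0.22 from 8 h (adjusted p = 0.000442). That was 1 of 8, beside 1.78% of all probe sets called higher from 0 h and 10.8% from 8 h. The change from 8 h rests partly on the array that stood apart, and SERPINB7 was not refitted without it. Ag09319 was also the line with the largest SERPINB1 change. SERPINB10, named after its values were seen, was like SERPINB1 highest in HL60 at 0 h, at 9.58 and 9.98, and between 2.98 and 5.37 in the other lines.

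The list of proteases and PLAUR gave no call in the means either. Of its 21 genes, all measured, 0 were called over 9 lines at 36 h (4 at an unadjusted p under 0.05), with a median change of -0.02, and 0 over the 4 lymphoblastoid lines (4 at an unadjusted p under 0.05), with a median of -0.09 beside -0.01. The SERPINB1 targets ELANE, PRTN3 and CTSG changed by -0.21 ± 0.07, -0.20 ± 0.07 and -0.11 ± 0.07 over 9 lines at 36 h (adjusted p of 0.192, 0.217 and 0.473). At 0 h these genes stood out in HL60 only, so this mean rests mostly on lines with low signal for them. In HL60 the mean of 5 promyelocyte markers, these targets among them, was 8.92 and 9.12 on the 0 h arrays and 8.74 and 8.29 at 36 h. At 0 h, CTSL, a lysosomal protease, was lower in lymphoblastoid lines by 3.30 ± 0.75 (-3.30, limma, adjusted p = 0.0487). That was 1 of 21, beside 0.781% of all probe sets called lower. The Ag09309 arrays that carried B cell markers are in this comparison, and CTSL was not refitted without a line. In Ag09319 PLAU fell by 1.18 ± 0.19 from 0 h to 36 h (adjusted p = 3.98e-05), 1 of 21 beside 2.71% of probe sets called lower, the opposite direction to SERPINB1 and SERPINB9 there. From 8 h to 36 h in that line CASP1 rose by 1.46 ± 0.27 (limma, adjusted p = 0.000216) and PLAU, PLAT and PLAUR fell, so 1 of 21 rose and 3 fell, beside 10.8% and 7.26% of all probe sets. The 8 h arrays of this line include 1 that stood apart, and these genes were not refitted without it. In Ag09309 CASP1 fell by 1.37 ± 0.27 at 8 h (adjusted p = 0.00116), 1 of 21 beside 1.42% called lower, in the comparison whose 0 h arrays carried B cell markers.

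Serpins of other clades, which are mostly secreted, were called in single lines only. Of 17 listed, 16 were measured, and 0 were called over 9 lines at 36 h (0 at an unadjusted p under 0.05) and 0 over the 4 lymphoblastoid lines (1 at an unadjusted p under 0.05). In HEP-G2 3 of 16 rose from 0 h to 36 h, beside 1.05% of all probe sets. They were SERPINA3, an inhibitor of cathepsin G made by liver cells, by 1.78 ± 0.23 (limma, adjusted p = 9.96e-06), SERPINE2 by 1.38 ± 0.27 (adjusted p = 0.00211) and SERPINC1, antithrombin, by 0.87 ± 0.19 (adjusted p = 0.00713). SERPINF1 rose in Ag09319 by 1.25 ± 0.32 (adjusted p = 0.0153), 1 of 16 beside 1.78% called higher. SERPINH1, a collagen chaperone, rose in Ag09309 by 0.59 ± 0.17 (adjusted p = 0.0337), 1 of 16 beside 2.65% called higher, against the 0 h arrays that carried B cell markers.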

How the data were processed

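RNA came from an Exiqon kit, and 100 ng of it was labelled by the WT Affymetrix protocol, per the labels' protocols. The authors computed log2 values with Affymetrix Expression Console 1.0 and RMA, per the submitters' processing notes. Sources used here do not state the dose, the genome build or whether RMA ran on all arrays at once. Of 33297 deposited probe sets, the probe table names 21214, and 19460 with 1 gene symbol were tested, without a filter on low values. Detection calls were not used. Precision is limited by the number of arrays.

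Tests used limma 3.58.1 in R 4.3.3, two-sided, with default moderation, Benjamini-Hochberg adjustment over all 19460 probe sets and a threshold of 0.05. For means over lines and class differences each group entered as the mean of its 2 arrays, with lines as replicates (for 9 lines, 16 residual degrees of freedom). Tests within a line, differences between a line and the mean of the other 8, and pairs of lines at 0 h came from 1 fit of 27 groups, so their standard errors share 1 spread per probe set (27 residual and 8.89 prior degrees of freedom). A value after ± is a standard error. Scripts were tested on simulated data.

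The members and lists were chosen with earlier results of these data known. Members were followed in every line. From each list up to 4 called genes with the largest change in a comparison could be named, 9 genes of the protease list, PLAUR included, were given at 0 h whatever their change, and likeness to SERPINB1 named the 5 genes with the highest Pearson correlation. Gene lists used the probe set with the highest mean for each gene. Promoter windows came from RefSeq, read with Python 3.11.15 (pandas 2.3.3, numpy 2.4.6, matplotlib 3.10.9).

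Alternatives were quantile normalization, array median centring, 1 probe set per gene, a fit at the level of arrays with a replicate block, a fit to the arrays of a line alone, the lines of each title style, dropping each line or array, and dropping the 3 arrays that stood apart. Where 1 array of a group was left, it was assumed to vary like the other groups.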

Additional observations from a re-analysis of the deposited data

Results flagged for a closer look

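Of 54 groups of line values, 6 held a value far from the others of its group, and chance gives about 1 in 20. SERPINB1 in HL60 stood apart at 8 h with 9.07, among the 9 lines and among the 5 lines that are not lymphoblastoid, and at 0 h with 8.49 among those 5. The SERPINB1 change of Ag09319 from 8 h to 36 h, 1.71, stood apart from the other 8 lines, and 1 of its 8 h arrays stood apart from the rest of the line. The mean of these changes over lines was among the values that chose the gene, so this flag is a description. The SERPINB9 change of Ag09309 at 8 h, -1.73, stood apart among the 9 lines and among the 5. Its difference from the other 8 lines was itself tested and passed at 8 h (-1.64, limma, adjusted p = 1.82e-07) and at 36 h (-1.43, adjusted p = 2.79e-06). The 0 h arrays of that line carried B cell markers, with MS4A1 at 8.15 and 8.07 against 3.38 and 3.29 at 8 h, and their part was not tested.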

How the results depend on the processing

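Of 1572 values under alternatives, over 165 results, 1513 kept their side of the threshold or, where there was no test, stayed close to the reported value, and 69 of these, past no threshold, changed sign. The number of probe sets called over 9 lines at 36 h against 0 h was 91, and became 40 with 1 probe set per gene, 29 in the 6 lines of the first title style, 0 in the 3 lines of the second, and 45 to 155 on leaving out a line. At 36 h against 8 h it was 72, and became 28, 0, 0 and 40 to 126, and 38 without the 3 arrays that stood apart. Both title style subsets hold fewer lines. The same-numbered arrays of a line did not deviate together in every line (27 correlations from -0.414 to 0.585, median 0.104, 14 over 0.1), so the numbers were not taken to pair the samples, though all 3 correlations were over 0.1 in K562, GM07348 and GM12878. An array-level fit with a replicate block called 428 and 409, and SERPINB9 from 8 h to 36 h passed there (0.56, adjusted p = 0.00533). On leaving out a line, that SERPINB9 change ran from 0.48 to 0.60, the SERPINB8 change at 36 h over lymphoblastoid lines from 0.32 to 0.40, the class difference at 0 h of SERPINB1 from -1.81 to -1.26 and that of SERPINB9 from 1.69 to 2.29. The SERPINB8 change of Ag09319 from 8 h to 36 h, -0.02, became 0.51 (adjusted p = 0.0423) without 8 h replicate 1, which leaves the array that stood apart as the only one at 8 h, and -0.55 without 8 h replicate 2. The SERPINB1 change of Ag09319 at 8 h, -0.40, became -0.85 without 8 h replicate 1 (adjusted p = 0.013) and 0.0468 without 8 h replicate 2. Causes were not tested. Signal near or below the array medians limits what a change there shows. This holds, among others, for SERPINB9 in HL60 and, at 8 h and 36 h, in Ag09309. It also holds for SERPINB8 in K562 and HEP-G2 and for SERPINB1 at 0 h in the lymphoblastoid lines.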
